A study of Bos taurus with 81 samples.

Results

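H3K4me3 was followed across the step from the bovine germinal vesicle oocyte to the 2-cell embryo, in 4 of the 81 libraries of the series. They are all of the H3K4me3 libraries of these stages, 2 from GV oocytes (GV replicates 1 and 2) and 2 from 2-cell embryos (2C replicates 1 and 2), chosen by their labels. Trimethylation of lysine 4 on histone H3 marks the start sites of active and poised genes in most cells. In mouse oocytes it is also known to spread into broad domains away from promoters, which are removed in the early embryo. H3K27ac marks active promoters and enhancers, H3K27me3 is laid down by Polycomb complexes and H3K9me3 marks heterochromatin. The question here was where H3K4me3 stayed, disappeared or appeared between the oocyte and the 2-cell embryo, and what the other marks did at the same places.

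The study profiled 4 histone marks by CUT&Tag, in which an antibody brings a transposase to the mark, from the oocyte to the blastocyst. The GV oocytes came from slaughterhouse ovaries and were taken before maturation in vitro. The 2C embryos were produced by maturation and fertilization in vitro and collected 32 h after insemination. Both groups were controls without inhibitor, no breed was given, and the pronase step that took off the zona pellucida was common to them. About 500 oocytes or 1000 to 1500 blastomeres were pooled for a library, so the stage, the number and kind of input cells, and the paternal genome that fertilization adds cannot be told apart. Nothing in the labels says that replicates came from separate collections, so p-values measure only the spread between these libraries, which may be technical.

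Each library has a deposited list of peaks on the ARS-UCD1.2 cattle assembly, and everything below is on autosomes 1 to 29. The autosomes were cut into 2488055 bins of 1 kb, and a bin was marked in a library when peaks covered at least 50% of it. A bin was kept if marked in both GV and both 2C libraries, lost if marked in both GV and neither 2C library, and gained if marked in neither GV and both 2C libraries. Read depth was not in the lists. A list can be longer because the library was deeper or because the mark was wider, and these were not separated. The main measures were therefore also taken after the weakest peaks of each longer list had been removed until all 4 lists covered the same length as the shortest, 2C replicate 2. Peaks were removed either by their score per base or by their whole score, a number the authors gave each peak. Lists cut in this way are called trimmed lists, and they change several results.

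The 2C lists held fewer peaks at longer distances, while the median width overlapped between the stages. GV replicates 1 and 2 had 168784 and 178845 peaks, and 2C replicates 1 and 2 had 118617 and 112476. Peaks covered 141 Mb and 176 Mb at GV against 114 Mb and 112 Mb at 2C. In trimmed lists the log2 ratio of peak number was -0.0022 by score per base and 0.35 by score, against -0.59 in the deposited lists. In covered length both 2C lists lay below both GV lists, yet the GV lists differed from each other by more than GV replicate 1 differed from either 2C list. The covered length was 159 Mb ± 24.8 at GV and 113 Mb ± 1.37 at 2C (SD, n = 2 each), a log2 ratio of -0.48 (exact permutation test, two-sided, p = 0.333, the smallest that 2 against 2 libraries allow). The median peak was 650 bp and 800 bp wide at GV and 750 bp in each 2C list, so the groups overlapped (exact permutation p = 1). The log2 ratio of 2C to GV median width was 0.057. In trimmed lists it was -0.041 by score per base (exact permutation p = 1). By score it was -0.53, where the groups did not overlap (exact permutation p = 0.333). The whole score is the score per base times the width, so trimming by it tends to remove narrow peaks first, mostly from the GV lists. Wider GV medians and fewer GV peaks by score are thus partly built into the trimming and do not measure a change of width.

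The gap from the end of a peak to the start of the next had medians of 1700 bp and 1600 bp at GV and 1900 bp and 1950 bp at 2C. That was a log2 ratio of 0.22, with groups that did not overlap (exact permutation p = 0.333, the smallest possible). The widest spaces differed more than the typical ones. The 90th percentile of the gap was 26050 bp and 23900 bp at GV and 36350 bp and 38450 bp at 2C, and the longest gap was 2103 kb and 2745 kb at GV and 3813 kb and 5221 kb at 2C. Gaps under 1 kb made up 39.2% and 40.2% of all gaps at GV and 38.7% and 38.6% at 2C. The longer median gap holds for the lists as deposited. In trimmed lists the order turned round, with a log2 ratio of -0.56 when peaks were removed by score per base and -0.80 when they were removed by score. Taking out a peak joins the gaps beside it, and the peaks taken out were mostly of the GV lists. Longer GV gaps are thus partly built into the trimming, and the turn alone says nothing of spacing.

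Peaks under 1 kb made up most of the drop in peak number, but they were also most of the peaks at each stage. Those of 500 bp to 1 kb were 51.0% and 52.0% of all peaks at GV and 51.3% and 52.0% at 2C. Peaks of 500 bp to 1 kb numbered 86042 and 92917 at GV and 60835 and 58500 at 2C. Peaks under 500 bp numbered 38703 and 23662 at GV and 19972 and 15531 at 2C. Peaks of 1 to 2 kb were fewer at 2C as well, with 36681 and 49259 at GV and 29108 and 29425 at 2C. The wide classes overlapped between stages, with 7209 and 12521 peaks of 2 to 5 kb at GV and 8239 and 8619 at 2C, and with 149 and 486 peaks of 5 kb or more at GV and 463 and 401 at 2C. Peaks at least 2 kb wide held 22.3% and 23.1% of the covered bases at 2C and 13.9% and 20.8% at GV, with no overlap between the stages.

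**Figure D1:**
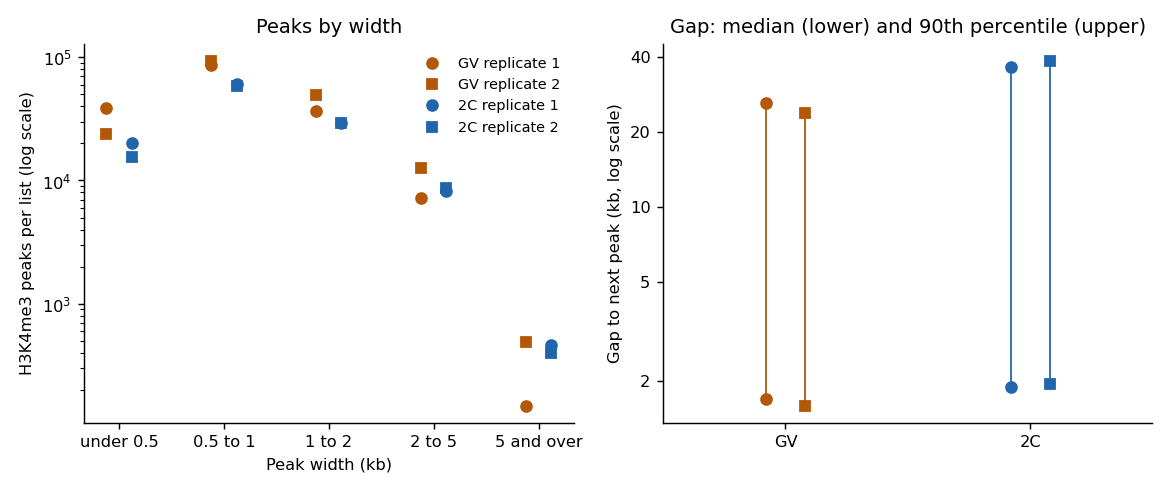
H3K4me3 peaks per list by width class (left, log scale) and the median and 90th percentile of the gap to the next peak in kb (right, log scale) in 2 GV and 2 2C lists, with a point for each library. The 2C lists have fewer peaks in each class under 2 kb and longer gaps than both GV lists, while the classes of 2 kb or more overlap.

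The bins gave the same picture in place. GV replicates 1 and 2 had 144754 and 185766 marked bins, and 2C replicates 1 and 2 had 118388 and 117454. Of the 119137 bins marked in both GV libraries, 64153 (53.8%) were kept, 28743 (24.1%) were lost, and 26241 (22.0%) were marked in 1 of the 2C libraries. Only 7770 bins were gained, 9.08% of the 85596 bins marked in both 2C libraries. Over all autosomal bins, 2.58% were kept, 1.16% lost and 0.312% gained. Lost bins outnumbered gained bins by 3.70 to 1 in the deposited lists. In trimmed lists there were 11473 lost and 14839 gained bins by score per base, or 12721 and 13198 by score. The excess of losses over gains was not present there. Without GV replicate 1 there were 71826 lost bins, without GV replicate 2 there were 45595, and without 2C replicate 1 or 2 there were 42613 or 41114. Gained bins then numbered 11445, 17768, 17909 and 17402.

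Loss at single bins has to be read against how well replicates match. Of the bins of GV replicate 1, 82.3% were marked in GV replicate 2 but 58.2% and 57.2% in 2C replicates 1 and 2. Of the larger set of GV replicate 2, 64.1% were marked in GV replicate 1 and 51.0% and 50.2% in the 2C libraries. The 2C replicates shared 72.3% of the bins of 2C replicate 1. When loss was picked in the libraries numbered 1 and read in those numbered 2, the 60568 picked bins were marked at 67.9% in GV and 24.7% in 2C. Picked in the libraries numbered 2, 92498 bins were marked at 46.1% in GV replicate 1 and 22.3% in 2C replicate 1. Libraries that had no part in the pick of losses showed the same direction. The GV lists hold more marked bins, which by itself favours this direction, and the reading was not repeated on trimmed lists. Picked gains carried over less evenly. The 34202 bins gained in the libraries numbered 1 were marked at 49.1% in GV replicate 2 and 52.0% in 2C replicate 2, and the 24186 bins gained in those numbered 2 at 26.0% in GV replicate 1 and 47.3% in 2C replicate 1.

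Lost bins were mostly empty at 2C rather than just under the threshold. No base lay under a peak in 67.8% and 71.0% of lost bins in 2C replicates 1 and 2. Gained bins were less clean on the GV side, where 53.3% and 46.8% had no covered base in GV replicates 1 and 2. Losses were scattered. They formed 25645 runs of adjacent bins, of which 89.6% were 1 bin long and 8 were of 5 bins or more, whereas kept bins formed 1277 runs of 5 bins or more. Gained bins lay close to kept ones, with 44.3% directly beside a kept bin and a median distance of 2 kb. Lost bins lay farther off, with 16.1% beside a kept bin and a median distance of 8 kb, against 1.37% and 79 kb for bins marked in none of the 4 libraries.

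Much of the loss was of whole peaks. Of the peaks of GV replicates 1 and 2, 32.7% and 37.1% had no base under any peak of either 2C list. Such peaks held 67.6% and 65.9% of the GV length that was uncovered in both 2C lists, 47.0 Mb and 68.7 Mb. The smaller portion lay in peaks that a 2C peak still overlapped. Partly uncovered peaks were also common between the GV lists. There 28.8 Mb of GV replicate 1 and 63.8 Mb of GV replicate 2 were uncovered, 44.1% and 44.6% of it in whole peaks. That portion thus does not show that peaks shrank from GV to 2C. A comparison of single lists gives the yardstick. Against a single 2C list, 41.5% to 47.7% of GV peaks were absent. Against the other GV list, 14.5% of the peaks of GV replicate 1 and 25.0% of those of GV replicate 2 were absent, and between the 2C lists the shares were 25.0% and 21.2%. In the other direction, 10.8% and 9.96% of the peaks of 2C replicates 1 and 2 had no base under a GV peak. In trimmed lists the mean share of GV peaks absent from 2C was 26.3% by score per base and 15.8% by score. The shares of 2C peaks absent from GV were then 21.1% and 20.5% by score per base and 23.9% and 23.5% by score, so the order of the directions depended on the trimming.

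Absence followed peak width steeply in the deposited lists. Of GV peaks under 500 bp, 53.0% and 60.4% were absent from both 2C lists in replicates 1 and 2. The shares were 36.5% and 47.1% at 500 bp to 1 kb, 8.68% and 16.3% at 1 to 2 kb, and 0.818% and 1.96% at 2 to 5 kb. None of the 149 and 486 GV peaks of 5 kb or more was absent. A similar slope appeared between the GV replicates, where 28.2% and 46.2% of peaks under 500 bp and 0.0277% and 0.264% of those of 2 to 5 kb were missing from the other list. In each class up to 5 kb the share absent from a single 2C list was above the share absent from the other GV list. In lists trimmed by score per base, 51.9% and 58.7% of GV peaks under 500 bp and 0.653% and 0.818% of those of 2 kb or more were absent. In lists trimmed by score the shares were 27.7% and 4.55% under 500 bp and 0.829% and 1.94% at 2 kb or more. Of the 178845 peaks of GV replicate 2, 74591 were left there. How many of those were under 500 bp was not counted, so the slope in this list cannot be judged. Each GV peak of 5 kb or more thus touched a 2C peak in the deposited lists. A single shared base was enough to count as found, which a wide peak meets more easily, so part of the slope comes with the measure. How much of the wide peaks was still covered at 2C was not measured by width class.

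**Figure D2:**
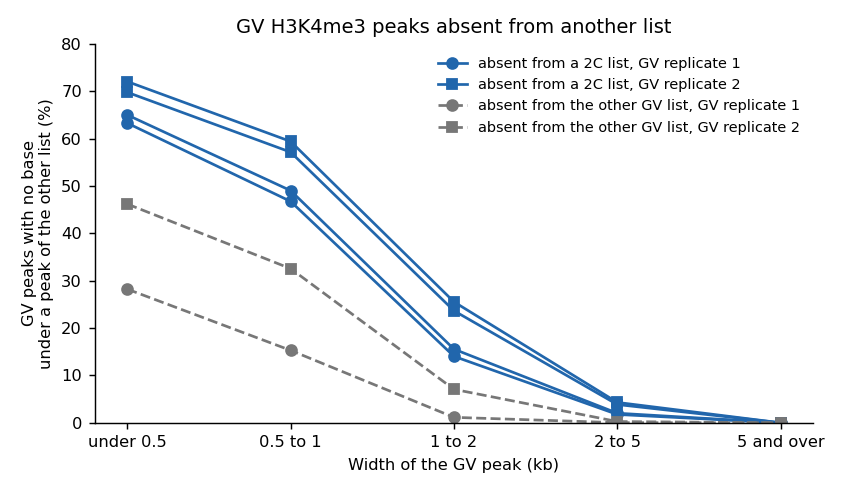
Percentage of GV H3K4me3 peaks with no base under a peak of another list, by the width of the GV peak in kb, for each 2C list (blue) and for the other GV list (grey, dashed). Absence falls with width in every comparison, and the blue points lie above the grey points of the same GV replicate in the classes under 5 kb.

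Absent peaks were also the weaker ones of their list. Ranked by score per base from 0 to 100 within a list, the median absent peak stood at 33.6 in GV replicate 1 and 33.5 in GV replicate 2, and the median peak found again stood at 58.2 and 60.5. In the lowest 20% of this rank 53.3% and 61.6% of peaks were absent, and in the highest 20% the shares were 15.8% and 16.2%. When peaks of 500 bp to 1 kb were ranked among themselves, the medians were 32.6 and 34.4 for absent and 60.2 and 63.1 for found peaks. The order thus held at like width, though these ranks are not on the scale of the whole list. The same order appeared between the GV replicates, where peaks absent from the other GV list had median ranks of 28.0 and 28.3 and peaks found there 53.4 and 57.8. Peaks that matched one to one showed no shared direction of width. The median ratio of 2C to GV width was 1 against GV replicate 1 for either 2C list, and 0.864 and 0.882 against GV replicate 2. GV replicate 1 stood at 0.875 of GV replicate 2 in the same measure, between these 2 values.

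Every autosome lost more bins than it gained in the deposited lists. On 28 of the 29 autosomes (96.6%) both 2C libraries had fewer marked bins than both GV libraries. The exception was chromosome 7, where GV replicates 1 and 2 had 4333 and 5499 marked bins and 2C replicates 1 and 2 had 4310 and 4470, a log2 ratio of -0.16. Across autosomes the log2 ratio ran from -0.79 to -0.16 with a median of -0.51. In trimmed lists, by score per base, 7 autosomes had both 2C libraries below both GV libraries and 13 had them above, and by score the counts were 16 and 8. Autosomes of a library share that library's depth and are not replicates.

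The share of GV bins lost was highest on chromosome 28 at 31.1%, chromosome 1 at 29.3% and chromosome 13 at 29.2%. It was lowest on chromosome 25 at 18.2%, chromosome 5 at 18.3% and chromosome 7 at 20.4%. Read pair by pair, between 49.2% and 58.5% of the bins of a GV library on chromosome 28 were absent from a 2C library, against 34.3% to 41.5% on chromosome 25, so these ranges did not overlap. Loss did not track the size of the chromosome. Over the 29 autosomes Spearman's rho of the share lost was -0.16 with the density of GV bins, and -0.00049 with length, given as a description since the points share the same 4 libraries. The median gap was longer in both 2C libraries than in both GV libraries on 23 autosomes and shorter on 1, chromosome 5.

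In 1 Mb windows, 1825 of 2473 (73.8%) had fewer marked bins in both 2C than in both GV libraries, and 53 had more. Windows were split into 5 classes of about equal size by the number of GV bins. The share of GV bins lost was 39.6% in the sparsest class, 33.3%, 33.7% and 30.3% in the next, and 20.2% in the densest. The share lost was highest where the oocyte had the fewest marked bins.

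Position along the chromosome separated bins further. Cattle autosomes have their centromere at one end, and the last bases of the assembly lie at the other, telomeric end. In the last 2 Mb of the 29 autosomes, 11317 bins were marked in both GV libraries, of which 78.7% were kept and 7.64% lost. In the first 2 Mb 24.5% of 3226 bins were lost, and in between 25.9% of 104594 were. The last 2 Mb were also the region richest in H3K4me3 and the one with the closest amounts at the 2 stages, with 21.9% and 25.7% of bins marked in GV replicates 1 and 2 and 24.6% and 24.1% in 2C replicates 1 and 2. The share lost was higher at each step away from the last base, from 7.11% in the last 1 Mb to 8.08% at 1 to 2 Mb, 16.1% at 2 to 5 Mb, 21.7% at 5 to 10 Mb, 26.4% at 10 to 20 Mb and 28.6% beyond.

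Loss was lower in the last 2 Mb than in the rest of the chromosome on 26 of 29 autosomes. The exceptions were chromosome 1 with 30.0%, chromosome 27 with 30.9% and chromosome 28 with 31.3% lost in the last 2 Mb, where 80, 97 and 240 GV bins lay. On 25 autosomes the pair of GV and 2C libraries with the most absence in the last 2 Mb was still below the pair with the least absence elsewhere. The difference was also present within single-bin runs, where 17.0% of bins in the last 2 Mb and 36.9% elsewhere were lost, and within runs of 5 to 9 GV bins, at 3.17% and 12.5%. Whole 1 Mb windows were also matched by their mean number of bins marked in the GV libraries. The shares were 19.4% and 31.8% in windows of 50 to 100 bins per Mb, 16.6% and 25.2% at 100 to 200, 4.62% and 21.6% at 200 to 300, and 6.45% and 14.0% above that. The 1 Mb windows from the last 2 Mb in these classes numbered 4, 6, 9 and 9. In trimmed lists the shares over all bins were 4.42% against 15.8% by score per base, and 4.42% against 16.6% by score. Leaving out each H3K4me3 library in turn gave 10.8% to 15.0% in the last 2 Mb and 33.5% to 40.8% elsewhere. Replicates also matched better near this end. Of the bins of GV replicate 1 in the last 2 Mb, 10.8% were absent from GV replicate 2, and 17.9% and 19.0% from the 2C libraries. Elsewhere these shares were 18.4%, 44.1% and 45.1%. Of the bins of GV replicate 2 in the last 2 Mb, 24.1% were absent from GV replicate 1, and 22.0% and 23.6% from the 2C libraries, so absence at 2C did not exceed the mismatch of the GV libraries there. Elsewhere the shares were 36.9%, 51.3% and 52.1%. The last 2 Mb were set apart after these values had been seen, and no test was made.

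**Figure D3:**
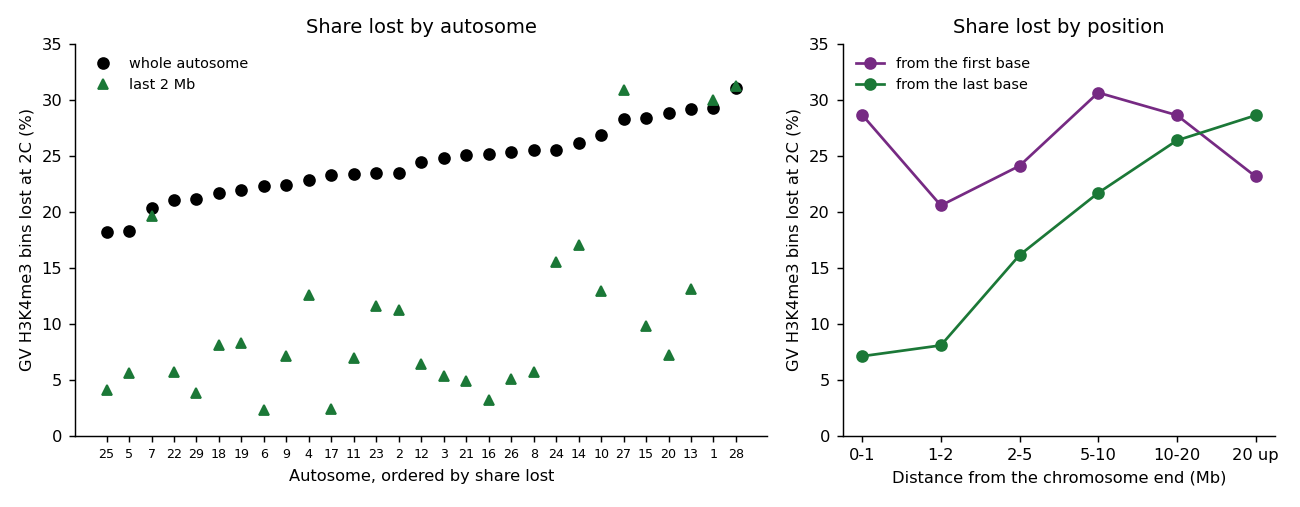
Share of GV H3K4me3 bins (marked in both GV libraries) that were lost at 2C, in percent, for each autosome as a whole and for its last 2 Mb (left), and by distance in Mb from the first or the last base over all 29 autosomes (right). The last 2 Mb lie below the whole autosome in all but a few, and loss rises from 7.11% to 28.6% with distance from the last base.

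The other 3 marks were read at lost and kept bins, whose choice their libraries had no part in. H3K27ac was alike at both classes in the oocyte and different in the embryo. It marked 40.7% and 44.7% of kept bins in GV replicates 1 and 2 and 38.6% and 46.6% in 2C replicates 1 and 2. At lost bins it marked 37.7% and 44.2% at GV but 10.5% and 13.6% at 2C. Over all autosomal bins its share was 5.05% and 6.05% at GV and 2.34% and 2.91% at 2C. The stages overlapped at kept bins, and at lost bins the 2C libraries lay below both GV libraries.

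H3K27me3 was lower at 2C in both classes. At kept bins it marked 53.0% and 49.9% at GV and 10.2% and 12.7% at 2C. At lost bins it marked 36.1% and 35.6% at GV and 10.9% and 13.0% at 2C, while over all bins the shares were 9.55% in each GV library and 4.42% and 5.26% at 2C. The excess of H3K27me3 at kept over lost bins in the oocyte was no longer present at 2C, where the classes overlapped. H3K9me3 differed in the other direction. It was nearly absent from H3K4me3 bins of the oocyte, at 0.938% and 1.18% of kept and 0.644% and 0.734% of lost bins, and at 2C marked 7.26% and 7.83% of kept and 6.81% and 7.74% of lost bins. Over all bins H3K9me3 went from 7.54% and 7.47% to 5.09% in each 2C library.

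The contrast between lost and kept bins was measured as the log2 ratio of their covered shares, after adding 0.001 to each share. For H3K27ac it was -0.11 and -0.04 in the GV libraries and -1.81 and -1.72 in the 2C libraries, a change of -1.69. For H3K27me3 it was -0.56 and -0.50 at GV and 0.10 and 0.04 at 2C, a change of 0.59. For H3K9me3 it was -0.47 and -0.57 at GV and -0.09 and -0.01 at 2C, a change of 0.47. The GV values rest on small covers, 0.928% and 1.16% of kept and 0.641% and 0.746% of lost bins. The H3K9me3 change was 0.23 with 0.01 added to the shares. It was 0.083 and 0.19 without the H3K4me3 list of GV replicate 1 or 2, and 0.81 in lists trimmed by score per base. In each mark the GV and 2C libraries did not overlap. The absolute changes summed to 2.75 (exact permutation test over the 216 arrangements of labels within marks, p = 0.037, the smallest possible). With replicate number as a block the exact permutation p was 0.125, the smallest of that design. Without the H3K4me3 list of GV replicate 1 the sum was 2.25 and the exact permutation p was 0.0741. A mark taken alone cannot give less than 0.333. By definition both classes have H3K4me3 at GV and only kept bins have it at 2C. For a mark that lies where H3K4me3 lies, a shift of this contrast is thus partly built into the choice of bins.

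**Figure D4:**
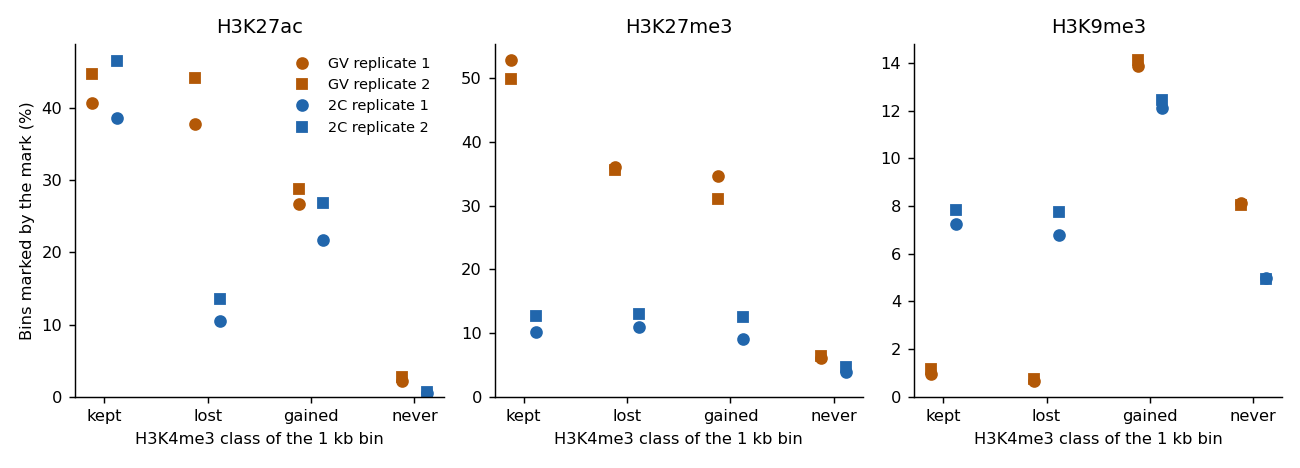
Percentage of 1 kb bins marked by H3K27ac, H3K27me3 and H3K9me3 at bins where H3K4me3 was kept, lost, gained or never marked, with a point for each GV and 2C library of the mark. At 2C, H3K27ac is lower at lost bins and overlaps with GV at kept bins, H3K27me3 is lower in all classes, and H3K9me3 is higher at kept and lost bins.

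The same was seen bin by bin. Of 9285 lost bins with H3K27ac in both GV libraries, 71.7% had it in neither 2C library, against 33.7% of 23150 such kept bins. Over all 101428 autosomal bins with H3K27ac in both GV libraries the share was 66.8%, and at bins never marked by H3K4me3 it was 88.8%. Lost bins were thus near the share of all bins, and kept bins lay below it. As a share of the class, both H3K27ac libraries lost the mark in 23.1% of lost and 12.2% of kept bins, beside 2.72% of all autosomal bins. H3K27ac was gained in 11.2% of kept and 0.992% of lost bins, beside 0.523% of all, and stayed in 11.7% and 2.09%, beside 0.5% of all. H3K27me3 was lost in 35.2% of kept and 20.8% of lost bins, beside 5.19% of all. It stayed in 8.21% and 7.05%, beside 1.35%, and was gained in 0.521% and 1.57%, beside 1.68%. H3K9me3 was gained in 5.08% of kept and 4.65% of lost bins, beside 0.652% of all. It stayed in 0.454% and 0.355%, beside 2.85%, and was lost in 0.193% and 0.0661%, beside 1.79%. H3K27me3 gains and H3K9me3 that stayed or was lost were thus rarer at kept and lost bins than over all bins. H3K27ac thus differed between lost and kept bins in both directions of change, while their shares with new H3K9me3 were close.

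The marks of the oocyte went with different shares of loss. Of the 15600 GV bins of H3K4me3 with H3K27ac, H3K27me3 and H3K9me3 in none of their GV libraries, 34.9% were lost. With H3K27ac alone in both of its libraries (33096 bins) the share was 24.8%, with H3K27me3 alone (38950 bins) 18.3%, and with both together (4407 bins) 13.0%. Loss also differed with the extent of H3K4me3 itself. The share lost was 35.8% for GV bins that stood alone, 22.5% in runs of 2 bins, 16.4% in runs of 3 or 4, 10.7% in runs of 5 to 9 and 6.19% in runs of 10 or more. Over the same classes H3K27me3 in both GV libraries went from 31.0% of single bins to 70.4% of bins in runs of 10 or more, and H3K27ac from 37.5% to 17.8%. Within each run class, loss was lower with H3K27me3 than without, at 31.7% against 37.4% for single bins and 7.37% against 16.7% in runs of 5 to 9. For H3K27ac the direction depended on the run, with 30.3% against 39.0% for single bins but 13.9% against 9.07% in runs of 5 to 9.

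Some bins gained at 2C carried H3K9me3 in the oocyte. H3K9me3 marked 13.9% and 14.1% of gained bins in the GV libraries, before H3K4me3 appeared, beside 8.13% and 8.04% of bins never marked. Its shares of kept and lost bins were far lower. Those bins have H3K4me3 at GV by definition and gained bins do not, so never marked bins are the nearer comparison. H3K9me3 still marked 12.1% and 12.4% of gained bins at 2C. H3K27ac marked 26.6% and 28.8% of gained bins at GV and 21.8% and 26.8% at 2C, and H3K27me3 went from 34.7% and 31.0% to 9.01% and 12.5%. In trimmed lists by score per base, H3K9me3 at gained bins was 8.03% and 8.38% at GV, and by score it was 8.71% and 9.001%. By score per base these shares were thus close to the 8.13% and 8.04% of never marked bins in the deposited lists, and by score slightly above them. Never marked bins were not counted anew for trimmed lists. At GV, by score per base, H3K9me3 marked 0.882% and 1.12% of kept and 0.593% and 0.575% of lost bins. That difference sets bins chosen without H3K4me3 at GV against bins chosen with it, and is not particular to gained bins.

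The longest kept stretch was 26 kb on chromosome 29, 49514001 to 49540000 (1-based). H3K4me3 covered 87.5% and 94.8% of it at GV and 89.8% and 91.0% at 2C. H3K27me3 covered all of it at GV and 92.3% and 95.4% at 2C, and H3K9me3 went from none to 100% and 93.8%. This stretch was at 0% for H3K4me3 in each MO, BL, ICM and TE library. The next were 19 kb on chromosome 14, 1245001 to 1264000, and 18 kb on chromosome 10, 14664001 to 14682000. After them came 18 kb on chromosome 17, 72357001 to 72375000, and 17 kb on the same chromosome, 71590001 to 71607000. In those 4 stretches H3K27me3 went from between 74.1% and 100% at GV to 0% in both 2C libraries, and H3K9me3 was 0% throughout. H3K27ac was higher in both 2C than in both GV libraries in 3 of the 4, for example from 0% and 3.16% to 52.1% and 70.0% on chromosome 14, and went from 73.6% and 71.7% to 30.3% and 25.0% on chromosome 10.

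The longest lost stretch was 8 kb on chromosome 1, 456001 to 464000, where H3K4me3 went from 79.4% and 93.1% covered at GV to 0% and 8.13% at 2C. H3K27ac there went from 50.0% and 76.3% to none, and both repressive marks covered all of it at both stages. On chromosome 10, 13418001 to 13424000, H3K4me3 went from 61.7% and 77.5% to 0% and 8.33%, and H3K9me3 from none to 63.3% and 93.3%. On chromosome 15, 74383001 to 74388000, H3K4me3 went from 85.0% and 90% to none and H3K9me3 from none to complete cover. Chromosome 16, 385001 to 390000, and chromosome 21, 33564001 to 33569000, lost H3K4me3 covers of 78.0% to 93.0%. H3K9me3 was absent from both of these at GV and covered 72.0% to 100% at 2C. In 4 of the 5 longest lost stretches H3K9me3 was thus present in both 2C and neither GV library. Over all lost bins that share was 4.65%, near the 5.08% of kept bins. H3K27me3 covered 50% to 100% of each of the 5 stretches at 2C, and on chromosomes 10 and 21 it had been absent at GV.

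The longest gained stretch was 7 kb on chromosome 17, 68582001 to 68589000. H3K4me3 covered 0% and 2.14% of it at GV, 97.1% and 92.9% at 2C and at least 77.9% in every later library. H3K9me3 covered 80% to 88.6% of it at both stages, so the active and the repressive mark lay on the same bins. On chromosome 15, 84935001 to 84941000, H3K4me3 went from none to 84.2% and 80% and was back at 0% from MO on. On chromosome 2, 114988001 to 114993000, it went from none to 87.0% and 93.0% in the absence of both repressive marks. The stretches on chromosome 3, 15306001 to 15311000, and chromosome 4, 112669001 to 112674000, had none at GV and 74.0% to 91.0% at 2C, with complete H3K9me3 cover at both stages. What genes lie in these stretches was not analysed here.

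Later H3K4me3 libraries, which did not enter the choice of bins, kept the classes apart. At 4C, 82.1% and 87.5% of kept bins, 64.1% and 69.8% of gained bins and 10.4% and 15.4% of lost bins were marked in replicates 1 and 2. Bins never marked stood at 0.211% and 0.368%. At 8C the lost bins stood at 4.20% and 13.4%, and in 8A, the 8-cell stage under α-amanitin, which blocks transcription, at 2.36% and 1.62%. From the morula (MO) on, kept bins were marked less often than gained bins. At BL the shares were 25.1% and 26.7% of kept, 34.6% and 37.2% of gained and 2.23% and 2.56% of lost bins. ICM, the inner cell mass, and TE, the trophectoderm, showed the same order. In at least 1 of the later control groups, both libraries marked 81.7% of kept, 71.4% of gained and 8.47% of lost bins, against 0.996% of bins never marked. Most bins lost by 2C were thus not marked again up to the blastocyst.

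**Figure D5:**
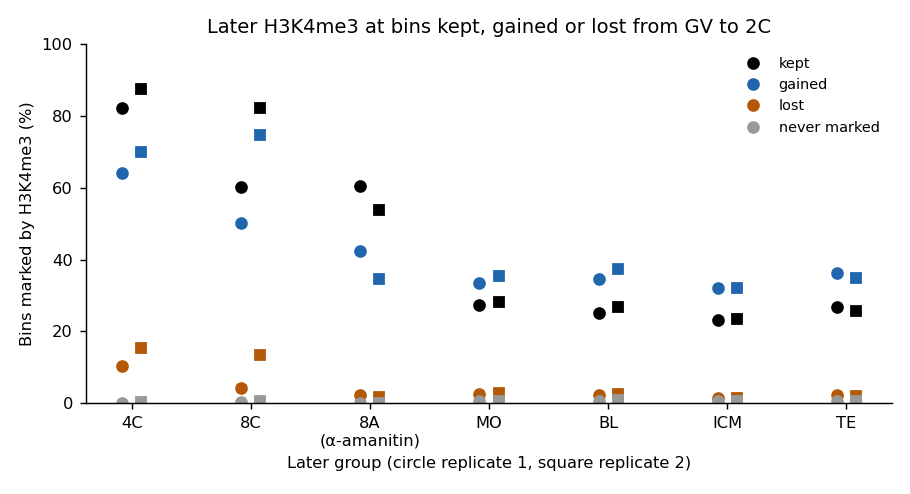
Percentage of kept, gained, lost and never marked 1 kb bins that were marked by H3K4me3 in the later groups, with circles for replicate 1 and squares for replicate 2. Lost bins stay at 15.4% or lower in every library, and gained bins lie above kept bins from MO on.

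Open chromatin of the blastocyst, read by ATAC-seq in other libraries, gave the same order. In the 3 BL libraries peaks of ATAC marked 32.9%, 41.9% and 42.6% of kept bins, 33.3%, 45.1% and 48.7% of gained bins and 7.20%, 11.5% and 11.8% of lost bins. Never marked bins stood at 1.32%, 2.02% and 2.35%. Lost bins were therefore less often open than kept bins in each library, yet more often than bins with no H3K4me3 in oocyte or 2-cell embryo.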

How the data were processed

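Peak lists of single libraries, made and deposited by the authors, were the starting point. Each line holds a position and a score, a whole number whose meaning the deposited lists do not give, used only to rank peaks within a list. The submitters' processing notes name BWA 0.7.9a, Trim Galore 0.4.0, cutadapt 1.8.3, SAMtools 1.9, Picard 2.26.10 and SICER, and the ARS-UCD1.2 build, with no order or role. The lists carry the name of epic2, and which caller made the peaks was not settled. Cutoff, control and read depth were not given in the sources used here.

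Bin cover was measured on a 50 bp grid, which is also the step of the H3K4me3 and H3K27ac peak edges. The edges of H3K27me3 and H3K9me3 lie on a 200 bp grid. Chromosome length was the highest peak end over all 81 lists. Groups of 2 libraries were compared by exact permutation, two-sided, at a threshold of 0.05. Named regions were the 5 longest runs of kept, lost and gained bins, and the 3 autosomes with the highest and the 3 with the lowest share lost. The members, measures and lists were chosen with earlier results of these data known. The comparison of the last 2 Mb and of run lengths was added after values had been seen. The code was tested on simulated lists and recovered 12 of 12 quantities. Python 3.11.15, NumPy 2.4.6, pandas 2.3.3 and Matplotlib 3.10.9 were used. Promoters of listed genes were part of the plan but were not analysed here, since the annotation at hand is of another assembly.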

Additional observations from a re-analysis of the deposited data

Results flagged for a closer look

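The X chromosome and the unplaced scaffolds were outside the autosomal comparisons. H3K4me3 covered 3.19 Mb and 3.98 Mb of X in GV replicates 1 and 2 and 1.97 Mb and 1.96 Mb in 2C replicates 1 and 2. The log2 ratio of 2C to GV in covered length was -0.86, against -0.48 over the autosomes. Unplaced scaffolds were covered over 1.74 Mb and 1.99 Mb at GV and 1.93 Mb and 1.77 Mb at 2C, a log2 ratio of -0.0094, so the stages overlapped there while they did not on the autosomes or X. The causes of both were not tested.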

How the results depend on the processing

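The 4 lists are of unknown depth, and the direction of change in amount rested on their length. Of 187 alternatives, 149 were labelled the same, a count that includes some that could not differ. Leaving out a library of a single mark, for instance, repeats the values of the other marks. Among the main results alone, 82 were labelled the same, 25 moved, 6 reversed and 2 weaker. For covered length, peak number, median width and median gap, the same meant only the same sign. The log2 ratio of peak number of -0.0022 in lists trimmed by score per base was so labelled, against -0.59 in the deposited lists. The counts thus overstate how well the sizes of change held. In lists trimmed to equal covered length, where covered length is equal by construction and has no value, the log2 ratio of peak number was 0.35 by score. The log2 ratio of median width was -0.041 by score per base and -0.53 by score, and -0.093 to 0.21 with single libraries left out, the lowest without GV replicate 1. That of the median gap was -0.56 and -0.80. Lost and gained bins were 11473 and 14839 by score per base and 12721 and 13198 by score, absent peaks 26.3% and 15.8%, autosomes with both 2C lists below both GV lists 7 by score per base, and lost bins marked later 11.4%. A threshold of 25% gave 102643 kept and 45034 lost bins and 9.40% marked later, and 75% gave 30632, 15030 and 8.84%. Bins of 5 kb gave 7064 kept, 3558 lost and 1095 gained. Absence defined as under 50% overlap gave 40.5% of peaks. Leaving out single libraries gave 41114 to 71826 lost bins, 11445 to 17909 gained bins, and 32.7% to 45.6% absent peaks. For the joint contrast of marks it gave 1.94 to 2.80, with an exact permutation p of 0.0741 without GV replicate 1. Same-numbered libraries did not deviate together over bins (correlation -0.0040). With 2 libraries per stage, this cannot show whether they shared a collection or a batch. With replicate number as a block, the joint contrast of 2.75 had an exact permutation p of 0.125, the smallest of that design, and the block changed no other call.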

Other observations

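H3K9me3 differed with the length of runs, a split made after the values were seen. Among lost bins it marked 5.46% and 6.14% of single bins in 2C replicates 1 and 2, 9.99% and 12.2% in runs of 2, 19.5% and 20.2% in runs of 3 or 4, and 59.1% and 65.9% of the 44 bins in the 8 runs of 5 or more. Among kept bins the rise was smaller, from 4.30% and 4.67% of single bins to 16.1% and 16.4% in runs of 5 or more. Among gained bins it was present already in the oocyte, at 10.2% of single bins in each GV library and at 62.1% and 67.2% of the 58 bins in the 11 runs of 5 or more. The repressive lists have wide peaks, so neighbouring bins often share one, and no test was made.

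The surroundings of kept and lost bins also differed in the oocyte. At 20 kb from the bin, H3K9me3 covered 10.2% and 10.8% around kept bins and 5.69% and 6.05% around lost bins in GV replicates 1 and 2, while at the bin itself it covered 0.899% and 1.13% of kept and 0.637% and 0.746% of lost bins. At 2C the cover at 20 kb was 13.0% and 13.4% around kept and 7.63% and 8.04% around lost bins.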
